A study of Mus musculus with 8 samples.

Results

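The miRNAs described here are mmu-miR-144, mmu-miR-451 and mmu-miR-486, which are known for their abundance in red blood cells. They were chosen by name, as the 3 array names equal to these among the 567 mouse miRNAs of the array, without use of their measured values. The question was whether they moved together across the livers, by treatment and by week, as a shared content of blood in the tissue would make them do.

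Liver RNA of male C57BL/6J mice, adult at 8 weeks of age when the injections began, was measured on 8 single-colour Agilent arrays, glass slides whose spots of short probes bind a labelled miRNA and glow in proportion to it. CCL4 mice received carbon tetrachloride, a hepatotoxin that produces fibrosis on repeated dosing, in olive oil into the peritoneum, and control mice received olive oil alone, 2 times a week up to 4 weeks and weekly after that. CCL4 mice supplied 5 arrays, namely 1 from week 4 and 2 each from weeks 6 and 8, and control mice supplied 3, with 1 from each week. Whether the RNA on an array came from one animal or several is not given in the sources used here, so n counts arrays and a p-value measures only the spread between arrays. Whether the livers were flushed of blood before RNA was extracted is not given either.

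miR-144 and miR-451 are made from a single transcript that the factor GATA1 switches on in red cell precursors. miR-451 is unusual in that Argonaute2 rather than Dicer cuts it from its hairpin, and mature red cells keep it at a very high level after they lose their nucleus. miR-486 is made from within Ank1, the gene of the ankyrin that anchors the red cell membrane skeleton, and is known from red cells and from muscle. Liver tissue holds blood in its sinusoids, so these miRNAs are often read there as a sign of blood, although in bulk tissue fewer red cells and less of the miRNA per cell cannot be told apart.

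The sequences are shown because miR-144 and miR-451 share a transcript but not a sequence, also not in the seed, the bases 2 to 8 that pair with targets. Of the 3 array names, 2 matched an entry of the RefSeq miRNA table (GRCm38.p6). The mature sequences follow 5′ to 3′ with the seed in capitals.
mmu-miR-451a: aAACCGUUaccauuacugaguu
mmu-miR-144-3p: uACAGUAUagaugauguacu
The seeds differ from each other, and each was shared with 0 other mature mouse miRNAs among the 1679 of that table. mmu-miR-486 is named only.

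Both hairpins lie on the plus strand of chromosome 11, at chr11:78073005-78073070 for Mir144 and chr11:78073170-78073241 for Mir451a, with 99 bases between them. They are shown with the mature miRNA in capitals because the cut differs between them.
Mir144 hairpin: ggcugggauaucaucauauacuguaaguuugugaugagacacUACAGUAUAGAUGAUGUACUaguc
Mir451a hairpin: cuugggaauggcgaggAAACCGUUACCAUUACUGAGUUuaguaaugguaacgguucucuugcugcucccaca
The mature miR-144-3p takes bases 43 to 62 of the 66 bases of its hairpin and lies in the 3′ arm. The mature miR-451a takes bases 17 to 38 of 72 and runs across the centre of its hairpin. The array name mmu-miR-144 carries no arm. Its probe ended 141 bases before that of mmu-miR-451 in the mm9 annotation of the array, which is the distance of the 3p arm (141 bases) and not that of the 5p arm (175 bases) in RefSeq. The probes of mmu-miR-486 were annotated to chromosome 8 of mm9, at chr8:24253067-24253080, so it shares no locus with the other members.

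All 3 miRNAs were called detected on all 8 arrays, each through 2 probes with 10 spots per probe, and none of their spots was saturated. Of the 567 mouse miRNAs, 113 were detected on all arrays and 133 on at least 3, and these 133 were tested. All arrays shared 1 slide and 1 scan. A level below is the signal of a miRNA divided by the 75th percentile of the 567 signals of its array, called the scaled level, and an unscaled signal is the value as the scanner software gave it. The 75th percentile itself ranged from 6.53 to 11.01 on the arrays of CCL4 mice and from 4.71 to 6.48 on those of control mice, so scaling lowered CCL4 arrays relative to control arrays. On each control array it lay below the lowest signal called detected (5.11 against 7.12, 4.71 against 6.26 and 6.48 against 7.80). On each CCL4 array it lay above that signal. From 117 to 126 miRNAs were detected on a control array and from 121 to 158 on a CCL4 array. The log2 fold change of CCL4 against olive oil over all weeks had a median of -0.36 with scaling and of 0.31 without it among the 113 miRNAs detected everywhere, and the direction of any treatment difference below has to be read against that shift.

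miR-451 had scaled levels of 1141, 510 and 718 in control mice at 4, 6 and 8 weeks. In CCL4 mice its scaled level was 447 at 4 weeks, 362 and 356 at 6 weeks, and 891 and 568 at 8 weeks. The 4-week control array and the first 8-week CCL4 array stood highest and the 6-week CCL4 arrays lowest, and the ranges of the treatments overlapped. Its unscaled signals were 5832, 2398 and 4652 in control mice. The unscaled signals in CCL4 mice were 4242 at 4 weeks, 2360 and 2689 at 6 weeks, and 9808 and 4936 at 8 weeks. Without scaling the first 8-week CCL4 array was the highest of all, and the 3 arrays of 6 weeks were the lowest.

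miR-144, the transcript partner of miR-451, had scaled levels of 73.4, 22.9 and 40.0 in control mice at 4, 6 and 8 weeks. In CCL4 mice they were 27.2 at 4 weeks, 17.7 and 18.8 at 6 weeks, and 61.9 and 36.9 at 8 weeks. The same 3 arrays led, the 4-week control, the first 8-week CCL4 and the 8-week control, and all 6-week arrays lay below the rest. Unscaled, miR-144 read 375, 108 and 259 in control mice. It read 258 at 4 weeks, 116 and 142 at 6 weeks, and 682 and 320 at 8 weeks in CCL4 mice. Its highest scaled level was 4.15-fold its lowest, against 3.21-fold for miR-451 and 3.53-fold for miR-486.

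miR-486 had scaled levels of 10.5, 4.60 and 6.68 in control mice at 4, 6 and 8 weeks. In CCL4 mice they were 4.24 at 4 weeks, 4.24 and 2.98 at 6 weeks, and 8.00 and 4.57 at 8 weeks. The 3 highest arrays were again those of miR-451 and miR-144, but the lower 5 lay closer together, and the treatments overlapped. Its unscaled signals were 53.8, 21.7 and 43.3 in control mice. They were 40.2 at 4 weeks, 27.7 and 22.5 at 6 weeks, and 88.1 and 39.7 at 8 weeks in CCL4 mice. The lowest signal that the software called detected on an array ranged from 0.139 to 8.16, so miR-486 stayed above it everywhere. Its spots were less precise, with a median coefficient of variation of 15.2% over the spots of a probe, against 4.08% for miR-144 and 3.78% for miR-451. The log2 ratio of its 2 probes varied over the arrays with an SD of 0.14, against 0.03 for miR-144 and 0.04 for miR-451.

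The members varied more between arrays than most miRNAs did. The SD of the log2 scaled level over the 8 arrays was 0.76 for miR-144, 0.61 for miR-451 and 0.59 for miR-486. These were the 3rd, 7th and 8th largest of the 113 miRNAs detected on all arrays, whose median SD was 0.32. The 2 arrays of a CCL4 pair also differed. At 8 weeks the first was 1.57-fold the second in scaled level for miR-451, 1.68-fold for miR-144 and 1.75-fold for miR-486. At 6 weeks the pair lay within 1.02-fold for miR-451, 1.06-fold for miR-144 and 1.42-fold for miR-486. Among the 3 control arrays alone, which received no CCL4, the highest scaled level was 2.24-fold the lowest for miR-451, 3.20-fold for miR-144 and 2.29-fold for miR-486.

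The 3 miRNAs rose and fell together across the arrays. On the log2 scaled level, miR-451 and miR-144 had a Pearson r of 0.975 over 8 arrays (exact permutation, two-sided p = 0.000149, adjusted over the 3 pairs 0.000223) and a Spearman rho of 0.952 (exact permutation p = 0.00114, adjusted 0.00171). miR-451 and miR-486, which are made from different chromosomes, had an r of 0.964 (exact permutation p = 9.92e-05, adjusted 0.000223) and a rho of 0.952 (exact permutation p = 0.00114, adjusted 0.00171). miR-144 and miR-486 had an r of 0.921 (exact permutation p = 0.00062, adjusted 0.00062) and a rho of 0.833 (exact permutation p = 0.0154, adjusted 0.0154). In each pair the 2 arrays farthest from the median were the 4-week control and the first 8-week CCL4 array. Without them r was 0.925 for miR-451 with miR-144 (exact permutation p = 0.0139, 6 arrays) and 0.876 for miR-451 with miR-486 (exact permutation p = 0.00556). For miR-144 with miR-486 it was 0.744 and no longer passed (exact permutation p = 0.0681), so that relation rested in part on those arrays.

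**Figure D1:**
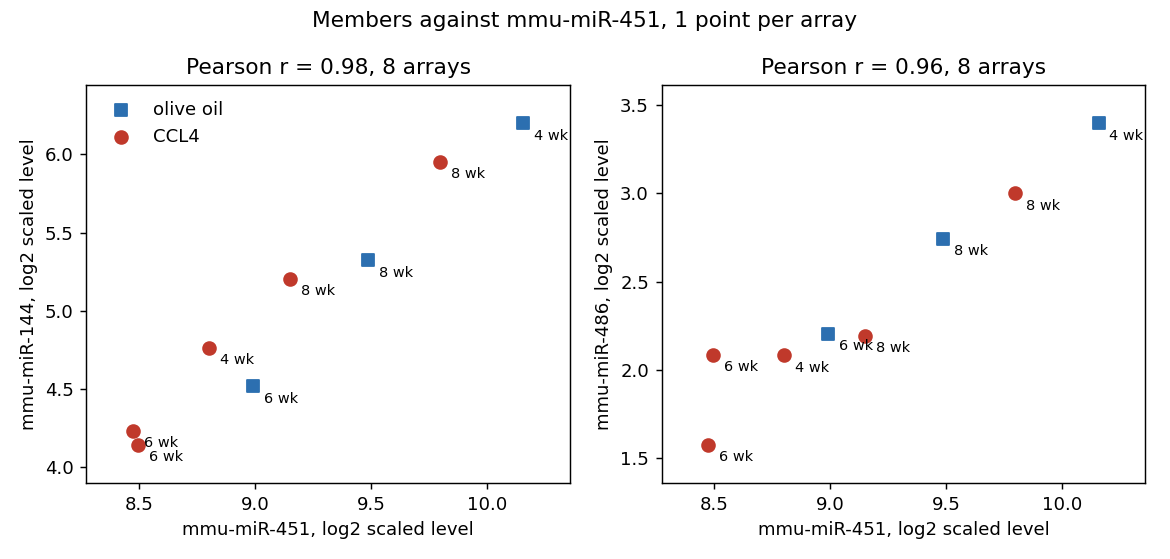
Log2 scaled level of miR-144 (left) and miR-486 (right) against that of miR-451, with 1 point per array labelled by week, olive oil as blue squares and CCL4 as red circles. Points of both treatments lie along one rising line in each panel (r = 0.98 and 0.96), with the 4-week olive oil array at the top.

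The members also moved together in the residuals of an additive model of week and treatment. That model leaves in the residuals any difference of the treatment effect between weeks, and other miRNAs were not compared there. When week and treatment were taken out of each miRNA by the linear model, the residuals had an r of 0.996 for miR-451 with miR-144, 0.907 for miR-451 with miR-486 and 0.873 for miR-144 with miR-486, given here as values with no test, since only the CCL4 pairs and the unequal weekly differences leave residuals. Without scaling the 3 values of r were 0.996, 0.974 and 0.965 in the same order. Most miRNAs moved together then, and r of 110 other miRNAs with miR-451 had a median of 0.652 and reached 0.904. With quantile normalization, which gives the brightest miRNAs nearly the same value on every array, miR-451 and miR-486 had an r of 0.636 and did not pass (exact permutation, adjusted p = 0.101). Within a treatment there were 5 and 3 arrays, and no correlation was computed there.

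The likeness of every other miRNA to miR-451 was taken as the background for these values. Among 110 other miRNAs that every array detected, r with miR-451 had a median of 0.455 and ran from -0.618 to 0.961. miR-144 ranked 1st and miR-486 2nd of 112. In likeness to miR-144, miR-451 ranked 1st and miR-486 only 3rd, behind miR-106b, which is not a member. These values are a description over 8 arrays that share slide, scan and scaling. The miRNAs next in likeness to miR-451 were miR-25 (r = 0.961), miR-106b (0.938), miR-338-3p (0.814), miR-19a (0.806) and miR-712 (0.797). For miR-144 the closest other than members were miR-106b (0.964), miR-25 (0.904), miR-19a (0.842), miR-142-5p (0.799) and miR-362-3p (0.772). For miR-486 they were miR-25 (0.895), miR-106b (0.826), miR-338-3p (0.737), miR-16 (0.686) and miR-19a (0.680). miR-25 and miR-106b come from a single cluster inside Mcm7 and are expressed in many dividing cells. They moved over a narrower range than the members, with an SD of the log2 scaled level of 0.25 for miR-25 and 0.28 for miR-106b. Of this pair, miR-25 is also on the list of miRNAs abundant in red cells used below, and miR-106b is not. Under quantile normalization miR-144 ranked 2nd and miR-486 6th in likeness to miR-451. Scaling by the median of miRNAs detected on all arrays put a miRNA that is not a member above both members for miR-451 (r = 0.973). The same held for miR-144 (r = 0.989), and miR-144 ranked 4th in likeness to miR-486. Without scaling the other members ranked 1st and 2nd for each member. The r of miR-451 was then 0.996 with miR-144 and 0.974 with miR-486, and that of miR-144 with miR-486 was 0.965. The highest r of the 110 others was 0.904 for miR-451, 0.919 for miR-144 and 0.854 for miR-486. With scaling, close joint movement was thus not particular to the members, and their rank depended on the scaling.

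The ratio of one member to another within an array does not depend on scaling. Over the 8 arrays the ratio of miR-144 to miR-451 varied by 1.55-fold from lowest to highest, that of miR-486 to miR-451 by 1.46-fold and that of miR-144 to miR-486 by 1.94-fold. The ratios of the 110 other miRNAs to miR-451 varied by a median of 2.85-fold, and the least variable by 1.96-fold. A ratio to miR-451 also varies where a miRNA moves with it over a narrower range. These values thus reflect the range of movement as well as how closely it was shared. The log2 ratio of miR-144 to miR-451 was -4.09 ± 0.21 (SD, n = 5) after CCL4 and -4.20 ± 0.26 (SD, n = 3) after olive oil, a difference of 0.11 (exact permutation over 56 splits, p = 0.536, adjusted 0.946). For miR-486 to miR-451 it was -6.76 ± 0.21 (SD, n = 5) and -6.77 ± 0.02 (SD, n = 3), a difference of 0.01 (exact permutation, p = 0.946, adjusted 0.946). For miR-144 to miR-486 the difference was 0.11 (exact permutation, p = 0.696, adjusted 0.946). No unequal change of the members with treatment was detectable with these arrays. With 56 splits and adjustment over 3 pairs, a single ratio could not pass 0.05 by itself, so the test could not decide this. With another background correction (normexp) the difference of miR-144 to miR-451 was 0.11 (exact permutation, adjusted p = 0.0536). That is the lowest adjusted p a single ratio can reach. Per unit of log2 miR-451, miR-144 moved by 1.23 and miR-486 by 0.94 on the log2 scaled level, and by 1.28 and 0.93 without scaling.

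CCL4 was compared with olive oil over all weeks with limma, with week as a factor. The mean log2 scaled level of miR-451 was 8.95 ± 0.55 (SD, n = 5) after CCL4 and 9.55 ± 0.58 (SD, n = 3) after olive oil. For miR-144 these were 4.86 ± 0.75 and 5.35 ± 0.84, and for miR-486 2.19 ± 0.51 and 2.78 ± 0.60, over the same arrays. In each member 4 of 5 CCL4 arrays lay below the control array of their week, and the groups overlapped. The log2 fold change of miR-451 was -0.56 (SE 0.236, 95% interval -1.08 to -0.04, limma adjusted p = 0.0683). It was -0.42 for miR-144 (SE 0.274, -1.02 to 0.19, limma adjusted p = 0.212) and -0.55 for miR-486 (SE 0.252, -1.10 to 0.01, limma adjusted p = 0.0891). None of the 3 passed the threshold of 0.05, while 35.3% of the 133 tested miRNAs were called lower and 13.5% higher. miR-451 alone of the members had an unadjusted p under 0.05 (p = 0.0385 by limma across all miRNAs), and the exact permutation test, which has no week term, gave p = 0.196 for miR-451, 0.429 for miR-144 and 0.214 for miR-486. Without scaling the fold changes turned positive, at 0.11, 0.25 and 0.12 for miR-451, miR-144 and miR-486, and only 2, 1 and 2 of 5 CCL4 arrays lay below their control. All 3 passed in a test over only the 113 miRNAs detected on all arrays (limma adjusted p = 0.0063, 0.0403 and 0.00706 in that order), in which 45.1% were called lower and 11.5% higher. Without either 4-week array, which takes week 4 out of the comparison, the differences were -0.26, -0.036 and -0.26 (limma adjusted p = 0.340, 0.920 and 0.340). Without the first 8-week CCL4 array they were -0.71, -0.60 and -0.71 and passed, where 41 of the 133 were called lower and 14 higher. Without the 8-week control array, which takes week 8 out of the comparison, they were -0.87, -0.80 and -0.78 and passed, where 60 were called lower and 11 higher.

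The treatment difference was also estimated at each week. At 4 weeks, with 1 array per treatment, miR-451 fell by 1.35 on the log2 scale (2.56-fold, limma adjusted p = 0.000501), miR-144 fell by 1.43 (2.70-fold, limma adjusted p = 0.00024) and miR-486 fell by 1.31 (2.48-fold, limma adjusted p = 0.000767), each with an SE of 0.328 in CCL4 against control mice. All 3 were called, in a comparison in which 33.1% of the tested miRNAs were called lower and 12% higher and in which the median of the 113 was -0.56. Without scaling the 4-week difference kept its sign, at -0.46, -0.54 and -0.42 for miR-451, miR-144 and miR-486, beside a median of 0.33 over the 113, and was not called. The spread behind these calls was one value for every miRNA, an SD of 0.232, taken from the CCL4 pairs. The members' own pairs had an SD of 0.324 (miR-451), 0.376 (miR-144) and 0.478 (miR-486), at percentiles 91.0, 95.5 and 97.7 of the 133. With the own spread of each miRNA in place of the shared one, none was called (adjusted p = 0.202, 0.212 and 0.289 in that order, by limma without moderation, an alternative chosen after seeing the data).

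At 6 and at 8 weeks no member was called. The log2 fold change at 6 weeks was -0.51 for miR-451, -0.33 for miR-144 and -0.37 for miR-486 (SE 0.284 each, limma adjusted p = 0.179, 0.323 and 0.279), where 3.01% of the tested miRNAs were called lower and 6.02% higher and the median of the 113 was -0.45. Without scaling it was 0.07, 0.25 and 0.20, beside a median of 0.13 over the 113. At 8 weeks it was -0.01, 0.26 and -0.14 in the same order (SE 0.284 each, limma adjusted p = 0.986, 0.758 and 0.842), where 0.752% were called lower and 6.02% higher and the median of the 113 was -0.14. The 8-week interval ran from -0.57 to 0.55 for miR-451, from -0.30 to 0.82 for miR-144 and from -0.70 to 0.41 for miR-486, so changes of that size in either direction could not be told from none. Without scaling the 8-week values were 0.58, 0.85 and 0.45, beside a median of 0.46 over the 113.

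**Figure D2:**
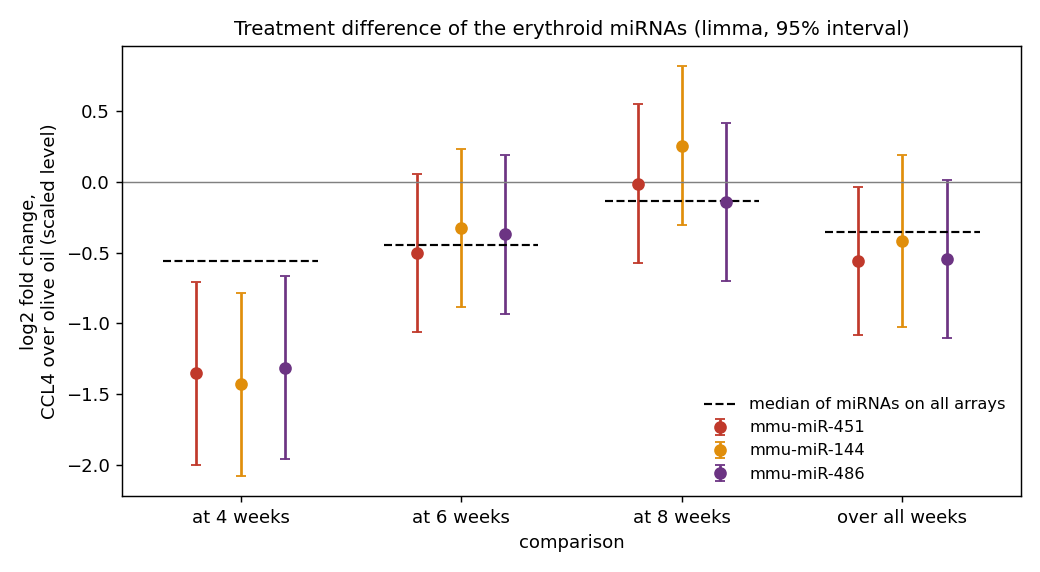
Log2 fold change of CCL4 over olive oil (scaled level) at 4, 6 and 8 weeks and over all weeks for miR-451 (red), miR-144 (orange) and miR-486 (purple), with limma 95% intervals; dashed lines mark the median of the miRNAs detected on all arrays. The 3 members lie below the median at 4 weeks (-1.35, -1.43 and -1.31), and at 8 weeks miR-144 (0.26) lies above it and above the other members, with intervals that overlap.

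The treatment differences were compared between the weeks, jointly and in pairs. The interaction of treatment and week had an F of 7.65 for miR-144 (limma adjusted p = 0.00904), 4.81 for miR-451 (limma adjusted p = 0.0987) and 3.92 for miR-486 (limma adjusted p = 0.185), in a test that called 6.02% of the 133. The treatment effect at 8 weeks minus that at 4 weeks was 1.69 for miR-144 (limma adjusted p = 0.00278), 1.34 for miR-451 (limma adjusted p = 0.0365) and 1.17 for miR-486 (limma adjusted p = 0.0770), where 3.01% were called in that direction and 3.76% in the other. The effect at 6 weeks minus that at 4 weeks was 1.10, 0.85 and 0.94 in the same order (limma adjusted p = 0.140, 0.404 and 0.294), where 1.5% were called in that direction and 3.76% in the other. The effect at 8 weeks minus that at 6 weeks was 0.59, 0.49 and 0.23 (limma adjusted p = 0.857 each), where 0% were called in that direction and 1.5% in the other. Over the 113 miRNAs the median of the difference between 8 and 4 weeks was 0.45. The interaction of miR-144 was lost without the first 8-week CCL4 array (F = 3.15, limma adjusted p = 0.633) and with own variances (F = 2.90, limma adjusted p = 0.714). Leaving out the only array of a treatment at a week removes that week's difference, so the test without the 8-week control or without either 4-week array is of another contrast. The joint call of miR-144 was lost under every other scaling run too, and whether the 3 members differed from each other in this pattern was not tested.

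The shared low of week 6 did not pass the test either. The week effect, with treatment in the model, had an F of 9.18 for miR-144 (unadjusted p = 0.00481 and adjusted p = 0.107 by limma), 5.70 for miR-451 (limma adjusted p = 0.180) and 3.82 for miR-486 (limma adjusted p = 0.293). By limma 0 of the 133 miRNAs passed (0% called) and 21 had an unadjusted p under 0.05. From week 6 to week 8 the log2 change was 1.19 for miR-144, 0.82 for miR-451 and 0.69 for miR-486 (limma adjusted p = 0.163, 0.255 and 0.420). From week 4 to week 6 it was -1.11, -0.73 and -0.69 in that order (limma adjusted p = 0.118, 0.214 and 0.258), where 1.5% of the 133 were called lower. Week 8 differed from week 4 by 0.082, 0.092 and -0.0041 (limma adjusted p = 0.889, 0.856 and 0.990), where 1.5% were called higher and 0.752% lower. Without scaling the week effect passed in all 3, with an F of 15.6, 10.9 and 8.59 for miR-144, miR-451 and miR-486 (limma adjusted p = 0.00923, 0.0254 and 0.0482), where 7.52% of the 133 passed. From week 6 to week 8 the median of the 113 rose by 0.59 without scaling, against 0.11 with it.

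Other miRNAs abundant in red cells were compared as a list. Of the list of 11 (miR-16, miR-15b, miR-92a, miR-25, miR-19b, miR-185, miR-484, miR-363, miR-20a, miR-106a and miR-107), 8 were tested, and miR-484, miR-363 and miR-106a were detected on 1, 0 and 0 arrays. These miRNAs are also made by many other cells. Over all weeks 4 of the 8 were called lower in CCL4 mice and 0 higher, against 35.3% and 13.5% of all tested miRNAs, with a median log2 fold change of -0.36, the same as the median of the 113. The 4 were miR-16 (-0.41, limma adjusted p = 0.0442), miR-92a (-0.47, limma adjusted p = 0.0232), miR-185 (-0.46, limma adjusted p = 0.0311) and miR-107 (-0.66, limma adjusted p = 0.0201), and without scaling their fold changes were 0.26, 0.20, 0.21 and 0.01. At 4 weeks 1 of the 8, miR-107, was called lower (-1.13, limma adjusted p = 0.00377), against 33.1% of all tested, and the median was -0.51, against -1.35 for the members. The log2 of the summed level of the 8 was 8.09 to 8.48 in CCL4 mice and 8.54 to 8.64 in control mice. This was a narrower range than the 8.56 to 9.91 and 9.07 to 10.26 of the 3 members. miR-451 made up most of the members' sum. Its own log2 scaled level was 8.48 to 9.80 in CCL4 mice and 8.99 to 10.16 in control mice. The r of the 8 with miR-451 had a median of 0.526 and ran from 0.277 (miR-185) to 0.961 (miR-25).

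Marker miRNAs of other liver cells were taken from lists of the same kind. Of 4 hepatocyte miRNAs, miR-122, miR-192 and miR-194 were called lower in CCL4 mice over all weeks (-0.78, -0.66 and -0.60, limma adjusted p = 0.0118, 0.0219 and 0.0232) and at 4 weeks (-1.28, -1.25 and -1.06), and miR-802 was called higher over all weeks (0.68, limma adjusted p = 0.0232). Of all tested miRNAs 35.3% were called lower and 13.5% higher over all weeks, and 33.1% lower at 4 weeks. Without scaling the all-week values were -0.11, 0.01 and 0.07 for the first 3 and 1.35 for miR-802. The log2 of the summed hepatocyte level was 11.19 to 12.01 in CCL4 mice and 12.36 to 12.52 in control mice. These ranges did not overlap, nor did those of the red-cell list and the endothelial pair, and 43.6% of the 133 miRNAs had all CCL4 arrays below all control arrays in scaled level, while the members' groups overlapped. Of 5 leukocyte miRNAs 3 were tested (miR-150 was detected on 0 arrays and miR-155 on 1), 0 were called over all weeks by limma, and at 4 weeks miR-223, a miRNA of neutrophils and other myeloid cells, was called higher (1.14, limma adjusted p = 0.00335) while the members were lower. At 4 weeks miR-142-3p changed by 0.36 and miR-142-5p by -0.12, and neither was called. The r with miR-451 was 0.714 for miR-142-5p, 0.483 for miR-142-3p and 0.030 for miR-223. The log2 of the summed leukocyte level was 5.46 to 7.10 in CCL4 mice and 5.87 to 6.57 in control mice. Neither of the endothelial pair miR-126-3p and miR-126-5p was called (-0.40 and -0.28, limma adjusted p = 0.0671 and 0.158). The log2 of the summed level of the pair was 7.09 to 7.68 in CCL4 mice and 7.73 to 7.82 in control mice. Of 5 mesenchymal miRNAs 4 were tested (miR-145 was detected on 0 arrays), and miR-199a-5p, miR-199b and miR-214 were called higher (0.55, 0.74 and 1.00, limma adjusted p = 0.0209, 0.0118 and 0.0118). The log2 of the summed level of the 4 was 4.65 to 5.38 in CCL4 mice and 4.34 to 4.71 in control mice. Their r with miR-451 ran from -0.444 to -0.008. The part of these cells, and of blood, in the levels of miR-144, miR-451 and miR-486 was not tested.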

How the data were processed

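The authors made the intensity values with Agilent Feature Extraction (version 10.5.1.1 per the file headers, another than the methods name). The software took the local background from every spot and added up the probes belonging to a miRNA, and the deposited intensities were not scaled to one another. The deposited value table held log2 values equal to log2 of the same signals to within 1.107e-06. The deposited detection flags (0 or 1) are those of the software.

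Here each signal was divided by its array's 75th percentile over 567 mouse miRNAs, floored at 0.01 and log2 transformed. The methods give the same percentile and floor but set the floor before the division, which was run as an alternative. The 133 miRNAs detected on at least 3 of 8 arrays were fitted with limma 3.58.1 in R 4.3.3, with week and treatment (4 residual degrees of freedom) or with a mean per group (2 residual degrees of freedom, 4 groups of 1 array being assumed to vary like the CCL4 pairs). Adjusted p is by Benjamini-Hochberg over the 133, with a threshold of 0.05. Exact permutations were run in Python 3.11.15 with SciPy 1.17.1. Intervals are 95%. The number of arrays limits the precision.

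The alternatives were 75th percentile and median scaling over miRNAs detected on all arrays, quantile and cyclic loess normalization, no scaling, normexp background correction (offset 50), the value table, other floors and filters, an intensity trend, no week term, the methods' t-test, a replicate block and leaving out each array. Each miRNA's own variance was added after seeing the data. The limma step was tested on simulated data. The members were chosen by name, and the lists were written with earlier results of these data known. The miRNAs named are the members, the tested miRNAs of the lists and the 5 most like each member. Slide and scan were 1 each and gave no block. Human arrays, qPCR and cell line experiments were not analysed here.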

Additional observations from a re-analysis of the deposited data

Results flagged for a closer look

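The treatment difference of mmu-miR-144 differed between weeks by the limma test of the interaction (adjusted p = 0.00904), with log2 fold changes of -1.43, -0.33 and 0.26 at 4, 6 and 8 weeks. mmu-miR-451 and mmu-miR-486 had differences of the same order over the weeks and did not pass that test. The 4-week difference rested on 1 array per treatment. The test called 6.02% of the 133. The call of mmu-miR-144 was absent without the first 8-week CCL4 array and under each other scaling run. It was also absent with own variances (F = 2.90) and without the detection filter (F = 3.32).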

How the results depend on the processing

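No scaling between arrays turned the treatment difference over all weeks to 0.11 (miR-451), 0.25 (miR-144) and 0.12 (miR-486), at 6 weeks to 0.071, 0.25 and 0.20 and at 8 weeks to 0.58 (miR-451) and 0.45 (miR-486), left the 4-week differences uncalled at -0.46, -0.54 and -0.42 and the interaction of miR-144 at an F of 2.29, raised the week effect to an F of 10.9, 15.6 and 8.59, and called 34 miRNAs higher and 0 lower in place of 18 and 47. The deposited value table gave the same differences, with a week F of 13.2, 22.2 and 10.9 and with 45 higher and 0 lower. Quantile normalization gave miR-451 0.051 over all weeks, 0 at 4 weeks and 0.14 at 6 weeks, left miR-144 at -0.91 and miR-486 at -0.92 at 4 weeks and miR-144 at an interaction F of 1.48 uncalled, and called 17 lower. Cyclic loess gave miR-451 0.032 over all weeks, -0.36 at 4 weeks, 0.075 at 6 weeks and 0.28 at 8 weeks, miR-144 -0.99 at 4 weeks, 0.044 at 6 weeks and an F of 2.37, miR-486 -1.01 at 4 weeks, and 19 lower. The 75th percentile over miRNAs detected on all arrays gave uncalled 4-week values of -1.13, -1.21 and -1.09, 0.13 (miR-144) and 0.089 (miR-486) at 6 weeks, an F of 3.38 and 10 lower. Median scaling gave uncalled 4-week values of -1.23, -1.31 and -1.19 and an F of 3.12. Normexp gave uncalled 4-week values of -0.62, -0.54 and -0.25, miR-451 0.43 at 8 weeks, miR-144 0.090 over all weeks, 0.087 at 6 weeks and an F of 2.00, miR-486 0.0025 at 6 weeks and 0.10 at 8 weeks, and 11 higher and 0 lower. Without the detection filter the 4-week values of -1.35, -1.43 and -1.31 and the F of 3.32 were not called and 5 miRNAs were higher and 0 lower, since undetected miRNAs at the floor entered the variance. With own variances the same 4-week values and an F of 2.90 were not called, with 3 higher and 1 lower. With the filter of detection on all arrays, -0.56, -0.42 and -0.55 over all weeks, a week F of 9.81, 21.3 and 7.49 and the miR-451 interaction F of 6.41 were called. With an intensity trend, miR-451 (-0.56), miR-486 (-0.55) and the week F of 12.5 for miR-144 were called, and the last also with the floor at the lowest detected signal (F = 10.8). Without the week term 11 were higher and 16 lower. The methods' t-test gave 10 and 23 after Benjamini-Hochberg and 0 and 1 after Bonferroni adjustment. Within 4 weeks the CCL4 minus olive oil difference in log2 ratio was -0.078 for miR-144 to miR-451 and -0.12 for miR-144 to miR-486. Within 8 weeks that difference was -0.13 for miR-486 to miR-451. Residual correlations were 0.996, 0.907 and 0.873, and quantile normalization left miR-451 with miR-486 at 0.636. Where no construction is named, the cause was not tested.

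Leaving out each array in turn gave the following lowest and highest values, in the order miR-451, miR-144 and miR-486. Over all weeks they were -0.87 to -0.26, -0.80 to -0.036 and -0.78 to -0.26, called only without the first 8-week CCL4 array or the 8-week control array, and nearest to 0 without either 4-week array. At 6 weeks they were -0.52 to -0.49, -0.37 to -0.29 and -0.63 to -0.12, the lowest of miR-486 being called without the first 6-week CCL4 array. At 8 weeks they were -0.34 to 0.31, -0.12 to 0.63 and -0.55 to 0.26. The 4-week values do not change without arrays of other weeks, and the adjusted p then stayed at or under 0.0135. The week F ran from 3.33 to 12.2, 4.71 to 25.1 and 2.04 to 9.95, called for all members without either 4-week array and for miR-144 also without the first 8-week CCL4 or the 8-week control array. The interaction F ran from 1.51 to 9.81, 2.13 to 15.7 and 0.32 to 9.24, but a fit without the only array of a treatment at a week tests the single contrast of the other weeks and not the same hypothesis. Over the 4 fits that kept all 3 weeks it ran from 1.88 to 9.81, 3.15 to 15.7 and 1.67 to 9.24, called for all members without either 6-week CCL4 array and for miR-144 also without the second 8-week CCL4 array. The share of all tested miRNAs called was not counted for the single-week, week and interaction fits without an array. Those calls of members therefore have no background beside them. The correlations ran from 0.961 to 0.988 (miR-451 with miR-144), 0.935 to 0.991 (miR-451 with miR-486) and 0.871 to 0.950 (miR-144 with miR-486), all called. The CCL4 minus olive oil differences in log2 ratio ran from -0.023 to 0.23 (miR-144 to miR-451), -0.079 to 0.058 (miR-486 to miR-451) and -0.019 to 0.26 (miR-144 to miR-486). From 8 to 14 miRNAs were called higher and 5 to 60 lower, the fewest without the 6-week control. Replicate numbers are shared only by the CCL4 groups of 6 and 8 weeks, whose replicate differences had an r of 0.051 across the 133 miRNAs, so they did not pair the arrays. The replicate block gave -0.51, -0.39 and -0.39 over all weeks, none called, with 12 miRNAs higher and 54 lower.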
